A study of Saccharomyces cerevisiae with 14 samples.

Results

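The galactose regulon of budding yeast was followed across strains that carried different TAF1 constructs or none. Its 9 members were taken by symbol from a list of genes for galactose use and its control, out of 5548 named genes on the array. They were GAL1, GAL7 and GAL10, which encode the enzymes of galactose breakdown; GAL2, the permease; GAL3, GAL80 and GAL4, the regulators; GCY1, a further target of Gal4; and MIG1, the repressor that acts in glucose. The rule used symbols and no measured value, but the list was chosen with earlier results of these data known. Each gene had 1 feature on the array, and all 9 passed the requirement of a value on every array. That requirement left 5535 tested genes. In RefSeq's R64 annotation GAL1 is YBR020W, GAL7 YBR018C and GAL10 YBR019C, all on chromosome II. The others lie apart, with GAL2 (YLR081W) on XII, GAL3 (YDR009W) on IV, GAL80 (YML051W) on XIII, GAL4 (YPL248C) on XVI, GCY1 (YOR120W) on XV and MIG1 (YGL035C) on VII.

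In yeast the activator Gal4 sits at sites upstream of the structural GAL genes, where Gal80 binds it and blocks its activation domain. When galactose enters the cell through Gal2, the sensor Gal3 binds the sugar and draws Gal80 away, and Gal4 recruits the SAGA coactivator, Mediator and RNA polymerase II. Glucose overrides this through Mig1, whereas raffinose leaves the genes uninduced but open to induction. TAF1 is a scaffold subunit of TFIID, the other main complex that brings TATA-binding protein to promoters, and the strong GAL promoters, which carry TATA boxes, are a textbook case of genes that rely on SAGA.

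The arrays carried PCR products of yeast genes and were hybridised with polyA RNA of 2 strains at a time, in Cy3 and Cy5. The tested strains were DT1 (strain yjdi355), TF1 (yjdi357), HT4 (yjdi359), PB1 (yjdi361) and null (yjdi381), and they were set against FHT-WT1 (yjdi353), whose label names the wild type. Every strain was hybridised against strain yjdi363, and the homotypic pair held yjdi363 in both channels. Each of the 7 groups had 2 arrays, 14 in all. For the 6 strains these were a dye swap: array 1 had the strain labelled with Cy5, and array 2 had it labelled with Cy3. Homotypic array 2 was used as deposited, and whether its ratios were turned like those of the other second arrays is not settled. In the sample titles, array 2 of FHT-WT1 and array 2 of the homotypic pair share a leading number. Array 2 of DT1, TF1, HT4, PB1 and null carries other numbers, and what they stand for is not given. What the construct codes stand for is not given, so no stretch of TAF1 is assigned to any of them.

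All cultures, that of yjdi363 included, were grown without leucine in 3% raffinose to an OD600 of 0.7, received 2% galactose for 30 min at 25 °C, and were then kept at 37 °C for 45 min. Galactose was thus in both channels of every array, and it also switched on the TAF1 constructs, per the labels. The ratios therefore set one induced culture against another and do not measure induction by galactose. Nothing in the labels says that both arrays of a strain were made from different cultures, and the p-values then measure array-to-array spread alone, which may be technical. The values below are log2 ratios of strain over yjdi363, minus the median of the array's named genes. This direction was taken from TAF1 itself, which averaged -3.49 ± 0.044 in the null strain and -0.35 ± 0.40 in FHT-WT1 (SD, n = 2 arrays each), a difference of -3.14 ± 0.21 (SE; limma, Benjamini-Hochberg adjusted p = 2.66e-05).

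Between 6935 and 6971 features had a value on each array. The median absolute deviation of the named genes was 0.127 to 0.206 on FHT-WT1 and homotypic arrays, against 0.263 to 0.382 on the arrays of the other strains, so the spread of all genes differed between the groups that are compared below. The deposited array medians ranged from -0.18 to 0.41.

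As deposited, GAL1 had a log2 ratio of 1.01 on null array 1, above a factor of 2. After centring, the members lay between -0.86 and 0.72 across the 12 strain arrays. No member then departed from yjdi363 by as much as a factor of 2 on any of those arrays. Over those arrays GAL2 had the widest range of the 9, at 1.29 between its lowest and highest log2 ratio, and 93.7% of all tested genes had a narrower one. GAL7 followed with 1.04 and GCY1 with 0.95. The narrowest were MIG1 at 0.47, GAL4 at 0.56 and GAL80 at 0.56, all below the median of 0.64 over all genes.

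**Figure D1:**
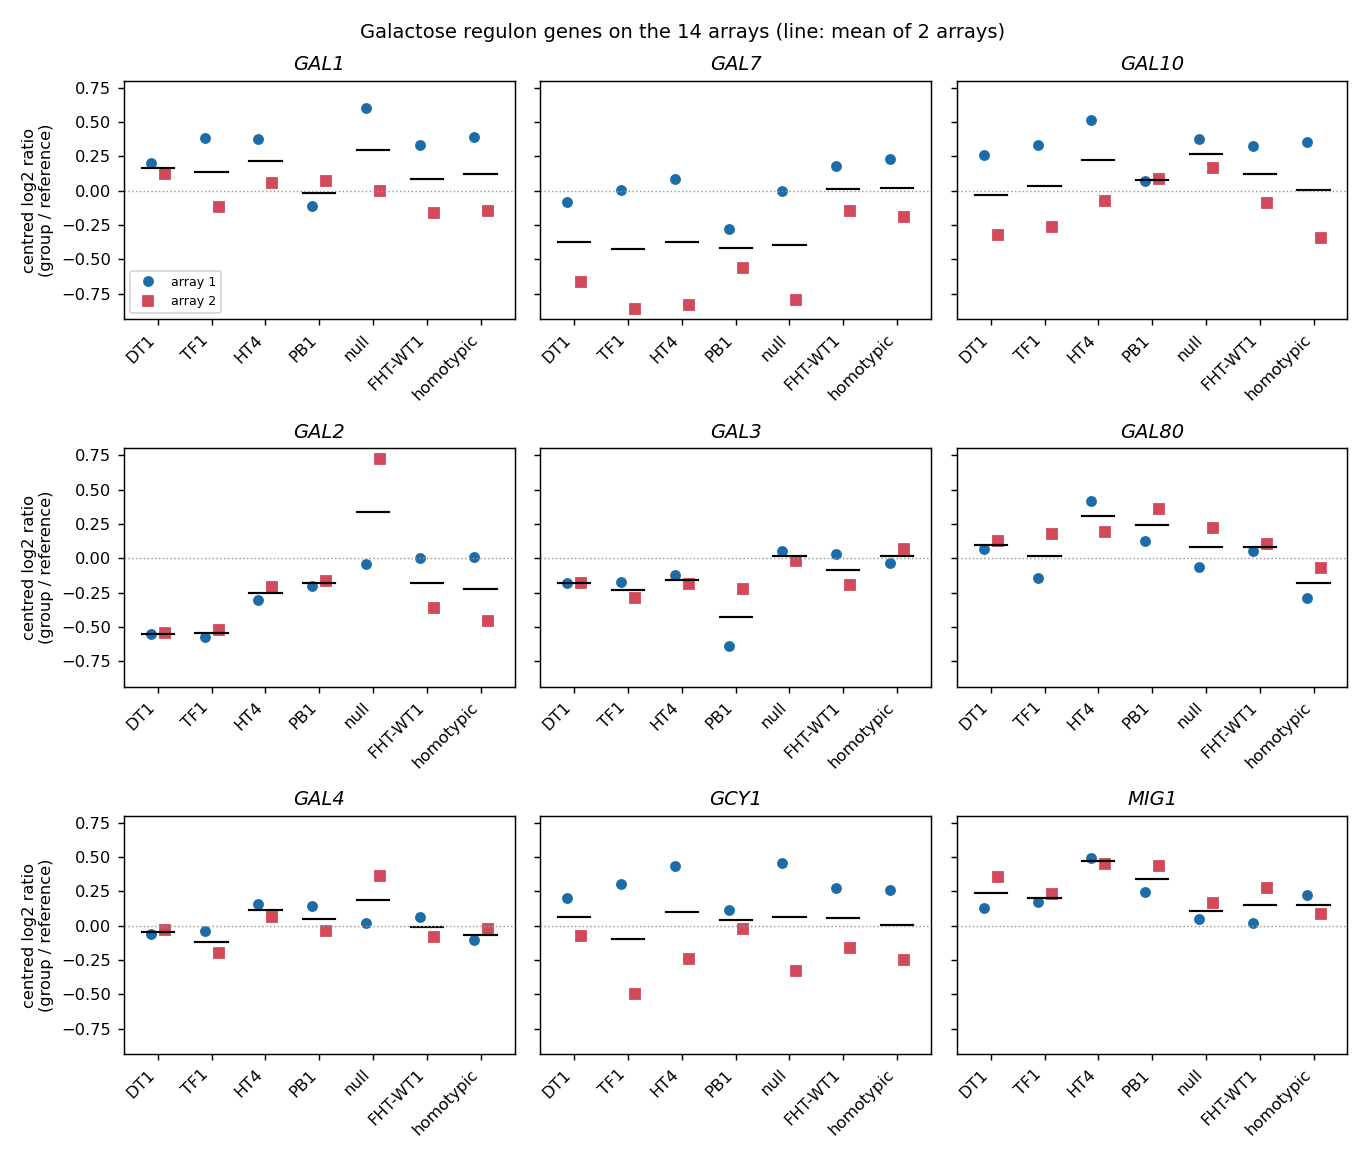
Centred log2 ratio of each member over yjdi363 (vertical axis) in the 7 groups (horizontal axis), with 1 point for each array and the marker showing array 1 or array 2. GAL7 sits lower in DT1, TF1, HT4, PB1 and null than in FHT-WT1 within each dye orientation, and GAL2 reaches its highest value of 0.72 on null array 2.

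GAL7 encodes the uridylyltransferase that takes up the product of galactokinase, and it was the only member that passed the test against FHT-WT1, for the mean of the 5 strains. Its centred log2 ratios on array 1 and array 2 were -0.085 and -0.67 in DT1, 0.0040 and -0.86 in TF1, 0.082 and -0.83 in HT4, -0.28 and -0.56 in PB1 and 0.00070 and -0.80 in null, against 0.18 and -0.15 in FHT-WT1 and 0.23 and -0.19 in the homotypic pair. On array 1 the 5 strains ran between -0.28 and 0.082, below FHT-WT1 at 0.18. On array 2 they ran between -0.86 and -0.56, below FHT-WT1 at -0.15. The strains thus did not overlap FHT-WT1 within either dye orientation, a pattern found in 13.3% of all tested genes, but they overlapped when both orientations were put together.

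The mean of the 5 strains was -0.40 for GAL7 and that of FHT-WT1 was 0.015, so GAL7 fell by 0.41 ± 0.12 (SE) on the log2 scale, which is 1.33-fold, with a 95% interval of the difference of -0.69 to -0.14. That difference passed the test by a small margin (limma, Benjamini-Hochberg adjusted p = 0.0497), and GAL7 was the only 1 of the 9 members called. Over all genes 12.4% were called in this comparison and 7.97% were called lower. Taken one at a time, the differences from FHT-WT1 were -0.39 ± 0.16 for DT1, -0.44 ± 0.16 for TF1, -0.39 ± 0.16 for HT4, -0.44 ± 0.16 for PB1 and -0.41 ± 0.16 for null. Each had an unadjusted p between 0.0179 and 0.0327 and an adjusted p between 0.118 and 0.243 (limma), so no single strain passed. An unadjusted p under 0.05 with a lower level in all 5 comparisons was met by 4.25% of genes, and the 5 comparisons share the same FHT-WT1 arrays.

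The call of GAL7 for the mean of the 5 strains held in 5 of 24 alternative settings, with limma adjusted p between 0.032 and 0.505. Without FHT-WT1 array 2 the difference was -0.26 (adjusted p = 0.433), and without FHT-WT1 array 1 it was -0.57 (adjusted p = 0.0952). Leaving out single arrays ended the call for 11 of 14 arrays, all but HT4 array 1, PB1 array 2 and null array 1. The difference kept its direction in all 24 settings. RNA came from whole cultures, so a lower level in each cell and a loss in some cells cannot be told apart. With the arrays brought to the same spread of all genes it was -0.38 (adjusted p = 0.0927).

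GAL1 encodes galactokinase, which phosphorylates the sugar. It stood at 0.20 and 0.12 in DT1, 0.39 and -0.12 in TF1, 0.38 and 0.057 in HT4, -0.11 and 0.071 in PB1 and 0.60 and -0.0013 in null, against 0.33 and -0.16 in FHT-WT1 and 0.39 and -0.15 in the homotypic pair on array 1 and array 2. The highest value was that of null array 1 and the lowest that of FHT-WT1 array 2. DT1 and PB1 lay between the FHT-WT1 arrays, and TF1, HT4 and null overlapped them and exceeded them on array 1. The differences from FHT-WT1 ran over -0.11 to 0.21 with adjusted p of 0.472 to 0.909 (limma), and their 95% intervals reached from 0.717 to 1.5 as folds.

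GAL10 encodes the epimerase and mutarotase of the same route. Its values were 0.26 and -0.32 in DT1, 0.34 and -0.27 in TF1, 0.52 and -0.076 in HT4, 0.075 and 0.084 in PB1 and 0.38 and 0.17 in null, against 0.33 and -0.091 in FHT-WT1 and 0.36 and -0.35 in the homotypic pair. HT4 array 1 was highest and homotypic array 2 lowest, and DT1 and TF1 had array 2 values below the lower FHT-WT1 array. Differences from FHT-WT1 ran over -0.15 to 0.15 (limma, adjusted p of 0.587 to 0.902), with intervals that reached from 0.709 to 1.41-fold. No strain was called for either gene. GAL7 and GAL10 are neighbours of GAL1 on chromosome II, in the order KAP104, GAL7, GAL10, GAL1, FUR4 of the R64 annotation. An antisense RNA is listed between GAL10 and GAL1, and PCR products on the array are double stranded, so sense and antisense RNA cannot be told apart.

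GAL2, the galactose permease, varied most among the members. Its values were -0.55 and -0.55 in DT1, -0.57 and -0.52 in TF1, -0.30 and -0.21 in HT4, -0.20 and -0.17 in PB1 and -0.045 and 0.72 in null, against -0.0014 and -0.36 in FHT-WT1 and 0.0077 and -0.45 in the homotypic pair on array 1 and array 2. DT1 and TF1 gave low and closely repeated values, below both FHT-WT1 arrays, and the share of all genes with such a separation was not counted. HT4 and PB1 lay between the FHT-WT1 arrays, and null was split between -0.045 on array 1 and 0.72 on array 2, the highest of all 14 arrays.

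Against FHT-WT1 the differences of GAL2 were -0.37 ± 0.22 in DT1 (SE; 95% interval -0.85 to 0.11) and -0.37 ± 0.22 in TF1 (-0.84 to 0.11), with limma adjusted p of 0.412 and 0.374. In null the difference was 0.52 ± 0.22 (unadjusted p = 0.0354, adjusted p = 0.174, limma), and it was -0.044 within array 1 and 1.08 within array 2. Set against null, DT1 differed by -0.89 ± 0.22 and TF1 by -0.89 ± 0.22, the widest gaps between 2 strains for any member. Their unadjusted p were 0.00161 and 0.00165, and neither passed over all genes (limma, adjusted p = 0.304 and 0.543). In the comparison of DT1 with null only 0.0723% of all genes were called, and in that of TF1 with null 0.0542%.

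The GAL2 result rested on which null array was used. Without null array 1 the differences from null became -1.33 for DT1, -1.32 for TF1, -1.03 for HT4 and -0.96 for PB1. Without null array 2 they became -0.45 for DT1, -0.45 for TF1, -0.16 for HT4 and -0.085 for PB1. The difference of null from FHT-WT1 became 0.96 without null array 1 and 0.083 without null array 2. With the arrays as deposited, where the median of all genes was itself -0.22 in this comparison, DT1 differed from null by -1.11 (adjusted p = 0.00346). In the fits without an array a single array stands for null and is assumed to vary like the other groups. GAL2 also resembles the hexose transporter genes in sequence, which can share signal on PCR-product arrays, and the part of this in the values was not tested.

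GAL3 encodes the sensor that binds galactose and releases Gal4 from Gal80. Its values were -0.18 and -0.18 in DT1, -0.17 and -0.29 in TF1, -0.12 and -0.19 in HT4, -0.64 and -0.23 in PB1 and 0.050 and -0.022 in null, against 0.027 and -0.19 in FHT-WT1 and -0.037 and 0.070 in the homotypic pair. PB1 array 1 stood lowest by a wide gap, and PB1 array 2 lay close to the other strains. PB1 differed from FHT-WT1 by -0.35 ± 0.14 (SE; 95% interval -0.65 to -0.045; unadjusted p = 0.0277; limma, adjusted p = 0.145). Within array 1 the difference was -0.67 and within array 2 it was -0.032.

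PB1 also had the lowest mean of GAL3 against null, with a difference of -0.45 ± 0.14 (unadjusted p = 0.00762; limma, adjusted p = 0.151). Without PB1 array 2 the differences were -0.59 against FHT-WT1 and -0.68 against null. Without PB1 array 1 they were -0.11 against FHT-WT1 and -0.21 against null. A single array stands for PB1 in each of these fits. GAL3 is a paralog of GAL1, and signal shared between them on the array was not tested.

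GAL80 encodes the inhibitor of Gal4. It stood at 0.066 and 0.12 in DT1, -0.15 and 0.18 in TF1, 0.42 and 0.19 in HT4, 0.13 and 0.36 in PB1 and -0.061 and 0.22 in null, against 0.056 and 0.11 in FHT-WT1 and -0.29 and -0.070 in the homotypic pair. HT4 and PB1 held the highest single values, and the homotypic arrays were both below 0. HT4 and PB1 lay above both FHT-WT1 arrays, a separation whose share over all genes was not counted. The difference was 0.22 ± 0.13 for HT4 (95% interval -0.066 to 0.51, limma, adjusted p = 0.293) and 0.16 for PB1 (limma, adjusted p = 0.478). The 5 differences ran over -0.064 to 0.22, and none was called.

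GAL4, the activator, is made at a low level in yeast. Its values were -0.060 and -0.034 in DT1, -0.042 and -0.20 in TF1, 0.16 and 0.062 in HT4, 0.14 and -0.036 in PB1 and 0.019 and 0.36 in null, against 0.064 and -0.084 in FHT-WT1 and -0.11 and -0.022 in the homotypic pair. Null array 2 was the highest and TF1 array 2 the lowest, and the other values stayed within 0.16 of the array median. Differences from FHT-WT1 ran over -0.11 to 0.20 with intervals from 0.759 to 1.4-fold (limma, adjusted p of 0.373 to 0.916). TF1 and null were furthest apart, by -0.31 ± 0.13 (unadjusted p = 0.0381; limma, adjusted p = 0.819). Over the 12 strain arrays, with the orientation means removed, GAL4 and GAL2 had a Pearson r of 0.85, a description in which null array 2 is the highest point for both.

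GCY1 encodes an aldo-keto reductase that takes part in glycerol use and is induced through Gal4. It stood at 0.20 and -0.075 in DT1, 0.30 and -0.50 in TF1, 0.43 and -0.24 in HT4, 0.11 and -0.025 in PB1 and 0.46 and -0.33 in null, against 0.28 and -0.16 in FHT-WT1 and 0.26 and -0.25 in the homotypic pair. Array 1 was above 0 and array 2 below 0 in all 7 groups, and within each orientation the strains fell on both sides of FHT-WT1. Its differences from FHT-WT1 ran over -0.16 to 0.038, with 95% intervals that reached from 0.707 to 1.3-fold (limma, adjusted p of 0.63 to 0.992).

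MIG1 encodes the zinc finger repressor that shuts the GAL genes in glucose. Its values were 0.13 and 0.36 in DT1, 0.17 and 0.23 in TF1, 0.50 and 0.45 in HT4, 0.24 and 0.43 in PB1 and 0.048 and 0.16 in null, against 0.023 and 0.28 in FHT-WT1 and 0.22 and 0.084 in the homotypic pair. Every array lay above its own median, and both HT4 arrays exceeded both arrays of FHT-WT1 and of every other group. How many of all genes stand apart in this way in HT4 was not counted. HT4 differed from FHT-WT1 by 0.32 ± 0.12 (95% interval 0.064 to 0.58; unadjusted p = 0.0187; limma, adjusted p = 0.0982), by 0.47 within array 1 and 0.17 within array 2. Against null the difference of HT4 was 0.37 ± 0.12 (unadjusted p = 0.00936; limma, adjusted p = 0.234).

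Across the regulon, 0 of 90 single tests passed, that is 9 members in the 5 comparisons with FHT-WT1, the 4 with null and that of FHT-WT1 with the homotypic pair, and the lowest adjusted p was 0.0982 (limma). An unadjusted p under 0.05 was met by 15 of the 90. The share of all genes called at an adjusted p under 0.05 against FHT-WT1 was 0.903% for DT1, 3.72% for TF1, 11.7% for HT4, 7.35% for PB1 and 6% for null, and 83.2% of all genes were never called in these 10 comparisons. With 9 members, none called is thus near what the background holds.

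At the unadjusted level against FHT-WT1, the members met were GAL7 in DT1 (1 of 9, against 17.4% of all genes) and in TF1 (1 of 9, 20.2%), GAL7 and MIG1 in HT4 (2 of 9, 28.6%), GAL7 and GAL3 in PB1 (2 of 9, 25.4%), and GAL7 and GAL2 in null (2 of 9, 24%). These shares are close to or under those of all genes. The median difference of the 9 members from FHT-WT1 was -0.037 for DT1, -0.11 for TF1, 0.10 for HT4, -0.016 for PB1 and 0.097 for null, whereas the median of all genes was between -0.012 and -0.0073 in each. The median size of the 45 differences was 0.11, against 0.16 over all genes and the same strains. The SE of such a difference was between 0.12 for MIG1 and 0.22 for GAL2.

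**Figure D2:**
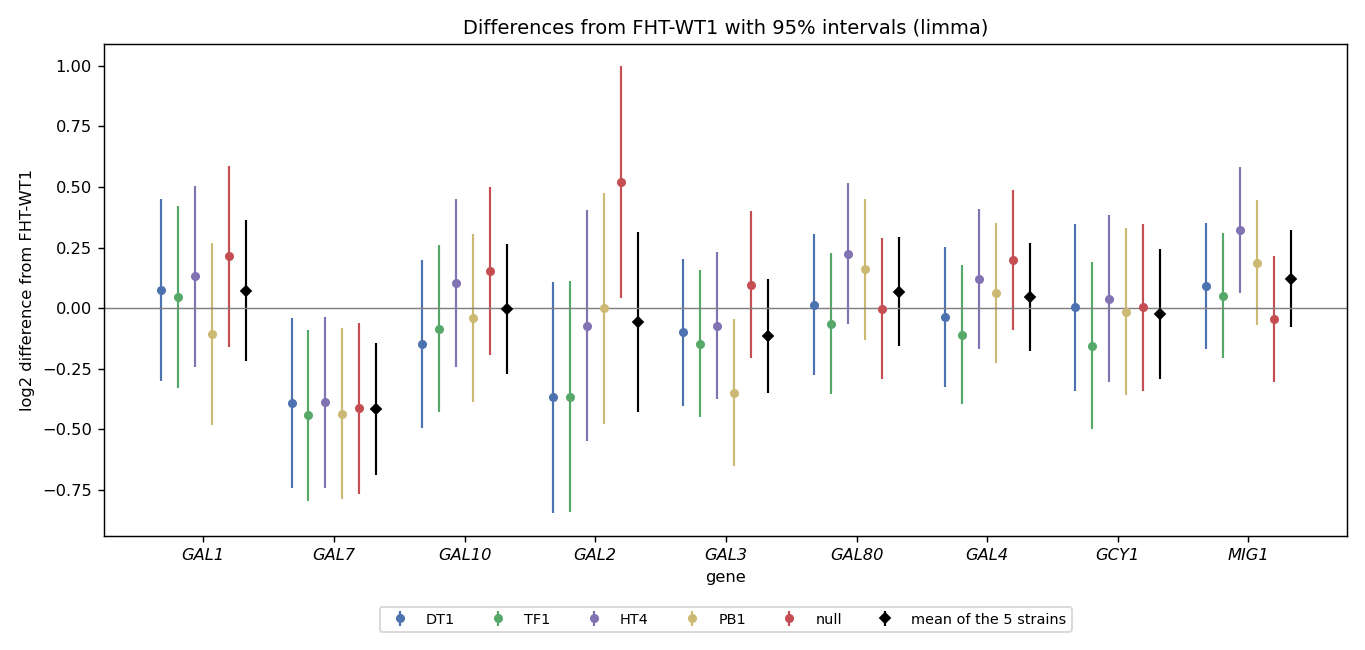
Log2 difference of each strain, and of the mean of the 5 strains, from FHT-WT1 (vertical axis) for each member (horizontal axis), with 95% intervals from the limma fit. All 6 GAL7 intervals lie below 0, while GAL2 spans from -0.37 in DT1 to 0.52 in null.

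The strains were also compared with null, where TAF1 was low on both arrays, and among themselves. GAL7 was nearly level there, with differences of -0.029 to 0.025 between the 4 construct strains and null (limma, adjusted p of 0.964 to 0.992). The means of GAL1 and GAL10 were lower than null in each construct strain, by differences of -0.32 to -0.083 and -0.30 to -0.050, none of them called. Within array 2, GAL1 differed from null by 0.12 in DT1, -0.12 in TF1, 0.058 in HT4 and 0.073 in PB1. Within array 1, GAL10 was above null in HT4, by 0.14, and below it in DT1, TF1 and PB1. The 4 comparisons share the null arrays. Against null an unadjusted p under 0.05 was met by 1 of 9 members for DT1 (10.1% of all genes), 2 for TF1 (5.96%), 2 for HT4 (11.5%) and 2 for PB1 (16.7%), and of all genes 0.506% were called for HT4. GAL2 was 1 of them in each, with GAL4 for TF1, MIG1 for HT4 and GAL3 for PB1. One test for any difference among all 6 strains called 0 of 9 members, against 4.01% of all genes. GAL2 alone had an unadjusted p under 0.05, as 25.3% of all genes did (limma moderated F test, adjusted p = 0.118). The same test among DT1, TF1, HT4 and PB1 called 0 of 9 members, against 0.379% of all genes, and none had an unadjusted p under 0.05 (13.6% of all genes).

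Of the 9 members, 4 differed between the dye orientations. The mean over the 7 groups of array 1 minus array 2 was 0.60 ± 0.086 for GAL7, 0.52 ± 0.085 for GCY1, 0.44 ± 0.085 for GAL10 and 0.34 ± 0.092 for GAL1 (SE). These 4 were higher on array 1 with adjusted p of 0.000586, 0.00114, 0.00259 and 0.0147 (limma), a test added after the values were seen. Over all genes 35% were called between the orientations and 17.3% were higher on array 1. GAL2, GAL3, GAL4, GAL80 and MIG1 had differences of -0.017, -0.0065, 0.018, -0.13 and -0.096, and none was called.

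GAL7 and GCY1 were higher on array 1 in all 7 groups, which 13.7% of all genes were too, and GAL1 and GAL10 in 6 of 7. The exception was PB1, with -0.18 for GAL1 and -0.0089 for GAL10. The homotypic pair, with the same strain in both channels, had differences of 0.54 for GAL1, 0.43 for GAL7, 0.70 for GAL10 and 0.51 for GCY1. These rest on the unsettled turn of homotypic array 2: with its sign reversed they were 0.24, 0.038, 0.011 and 0.012. Over the 6 strains alone the mean differences were 0.63 for GAL7, 0.52 for GCY1, 0.40 for GAL10 and 0.30 for GAL1 (limma, adjusted p = 0.0016, 0.00349, 0.00829 and 0.0406). The GAL1 call was lost without variance shrinkage (adjusted p = 0.0664). Array 1 and array 2 differ in dye assignment and in hybridisation, which cannot be told apart. The strain differences above hold the orientation as a term of the fit.

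**Figure D3:**
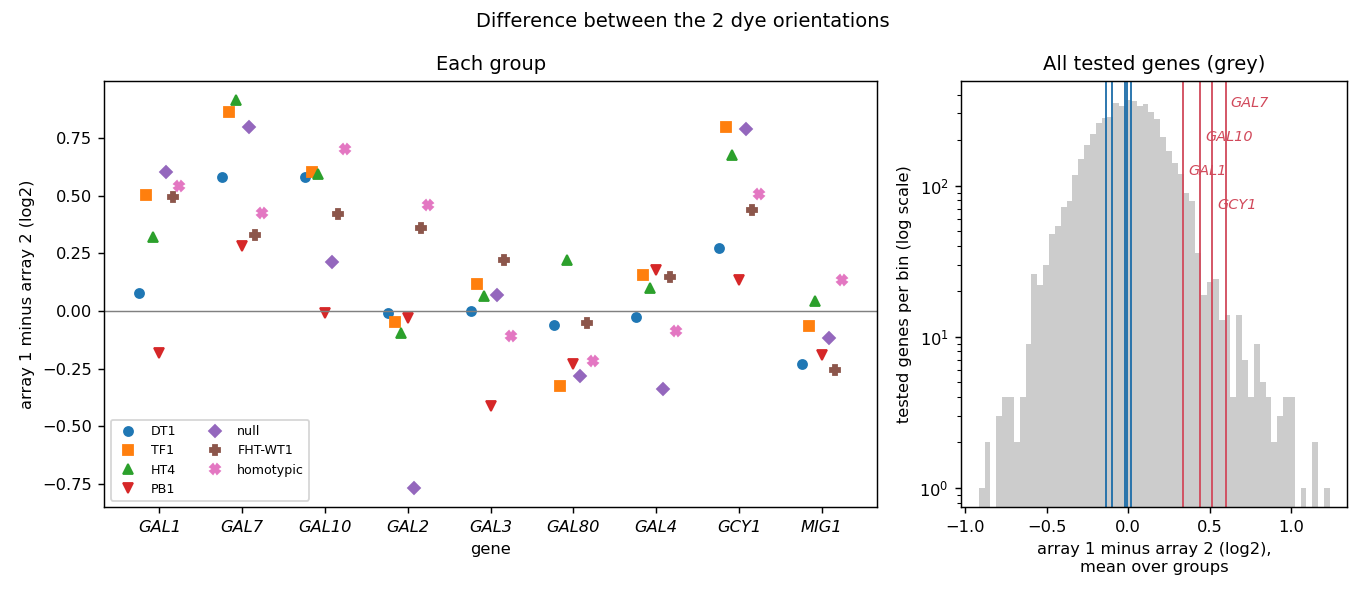
Left, array 1 minus array 2 in log2 (vertical axis) for each member (horizontal axis), with 1 point for each of the 7 groups; right, the mean of this difference over the groups for all 5535 tested genes (grey counts on a log axis) with the members marked. GAL1, GAL7, GAL10 and GCY1 lie on the positive side, with means of 0.34, 0.60, 0.44 and 0.52.

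With the orientation means removed, the members did not move as one block over the 12 strain arrays. Pearson r was 0.46 between GAL1 and GAL10, 0.29 between GAL7 and GAL10 and 0.18 between GAL1 and GAL7. It was 0.81 between GAL1 and its paralog GAL3, 0.69 between GAL1 and GCY1, and 0.69 between GAL80 and MIG1. The genes whose values were most like the mean of GAL1, GAL7 and GAL10 were SSU1, the sulfite efflux pump, at 0.85, YNR064C at 0.81, MIY2 at 0.80, IDP3, the peroxisomal isocitrate dehydrogenase, at 0.78, and HIS2, of histidine synthesis, at 0.75. These are descriptions over 12 arrays that share reference RNA and strain pairs, and the 5 were the highest among genes that are no member.

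Against the homotypic pair, FHT-WT1 differed by -0.10 to 0.26 over the members. No member was called (0 of 9, against 0% of all genes), and none had an unadjusted p under 0.05, which 4.95% of all genes had. The largest was GAL80 at 0.26 ± 0.13 (unadjusted p = 0.075; limma, adjusted p = 0.934). A comparison of the mean of the 5 strains with the homotypic pair was added after the values were seen, and it called 2 of 9 members, against 29.5% of all genes. GAL7 fell by 0.42 ± 0.12 (SE; limma, adjusted p = 0.0266).

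GAL80 was higher than in the homotypic pair by 0.33 ± 0.10 (SE; limma, adjusted p = 0.0332), but with the arrays as deposited the difference was 0.066 (adjusted p = 0.817). Against FHT-WT1 it was 0.067 ± 0.10 (adjusted p = 0.705). Leaving out homotypic array 1 gave 0.28 (adjusted p = 0.234) for GAL80 and -0.52 (adjusted p = 0.0771) for GAL7. Leaving out homotypic array 2 gave 0.37 (adjusted p = 0.161) for GAL80 and -0.32 (adjusted p = 0.308) for GAL7. Turning homotypic array 2 the other way gave 0.26 (adjusted p = 0.129) for GAL80 and -0.61 (adjusted p = 0.0157) for GAL7. The GAL80 call was also lost without DT1 array 1 (0.32, adjusted p = 0.056) and without TF1 array 2 (0.30, adjusted p = 0.0596).

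Of 24 other genes tied to galactose use, all tested, 0 were called against FHT-WT1 for DT1, 1 for TF1, 3 for HT4, 5 for PB1 and 2 for null, the background shares being those given above. PGM2, the phosphoglucomutase that links galactose breakdown to glycolysis, was called higher in HT4, PB1 and null. UGP1, which makes UDP-glucose, was called higher in HT4 and null. FUR4, the uracil permease gene beside GAL1 and a Gal4 target, was called higher in PB1. So was PCL10, a Pho85 cyclin that acts on glycogen synthase and a Gal4 target. NRG2, a repressor of genes subject to glucose control, was called lower in PB1. YPR1, the paralog of GCY1, was called lower in TF1, HT4 and PB1.

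NRG2 and PCL10 had the widest differences of the 24 genes in PB1 against FHT-WT1. The mean of NRG2 was also low in DT1 (-0.51), TF1 (-0.35), HT4 (-0.49) and null (-0.41). PCL10 averaged 0.56 in HT4, 0.21 in DT1, 0.21 in TF1 and -0.036 in null. The test among DT1, TF1, HT4 and PB1 called neither gene (limma moderated F test, adjusted p = 0.145 for NRG2 and 0.0831 for PCL10). NRG2 stood at -1.25 and -0.99 in PB1, against -0.29 and 0.062 in FHT-WT1, a difference of -1.004 ± 0.155 (SE; limma, adjusted p = 0.00462). PCL10 stood at 1.14 and 0.89 in PB1, against 0.18 and 0.12 in FHT-WT1, a difference of 0.86 ± 0.15 (limma, adjusted p = 0.00833). Neither gene's PB1 values overlapped those of FHT-WT1, but both genes were named for their calls in this comparison. The share of all genes without such overlap was not counted. PCL10 was also the only 1 of the 24 called against null, in PB1, at 1.05 ± 0.15 (limma, adjusted p = 0.00629), where 1.16% of all genes were called; without null array 2 that difference was 0.93 (adjusted p = 0.0575).

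PGM2 was 0.72 and 0.88 on the null arrays, 0.86 and 0.44 in PB1 and 0.70 and 0.44 in HT4, against 0.20 and -0.12 in FHT-WT1. Its differences were 0.76 ± 0.16 in null, 0.61 ± 0.16 in PB1 and 0.53 ± 0.16 in HT4 (limma, adjusted p = 0.0273, 0.0386 and 0.0484). UGP1 was 0.55 and 0.54 in null and 0.69 and 0.27 in HT4, against 0.17 and -0.19 in FHT-WT1, and differed by 0.56 ± 0.14 in null and 0.49 ± 0.14 in HT4 (adjusted p = 0.0385 and 0.042). FUR4 was 0.44 and 0.51 in PB1, against 0.012 and -0.16 in FHT-WT1, a difference of 0.55 ± 0.12 (adjusted p = 0.0231). Every value of these 3 genes in those strains lay above both FHT-WT1 arrays. Those are the strains in which each gene was called, and the share of all genes separated like this was not counted. The means were also above that of FHT-WT1 in the strains without a call. UGP1 averaged 0.475 in TF1, 0.33 in PB1 and 0.32 in DT1, against -0.012 in FHT-WT1. FUR4 averaged 0.33 in TF1, 0.21 in null, 0.18 in HT4 and 0.14 in DT1, against -0.075 in FHT-WT1. PGM2 averaged 0.33 in TF1 and 0.15 in DT1, against 0.040 in FHT-WT1.

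YPR1 lay between -0.88 and -0.45 on the 10 arrays of the 5 strains, with no overlap with FHT-WT1 or the homotypic pair. It stood at -0.052 and -0.039 in FHT-WT1 and at 0.12 and 0.20 in the homotypic pair. How many of all genes separate in this way was not counted, and YPR1 was named for its calls. It differed from FHT-WT1 by -0.57 ± 0.13 in TF1, -0.53 ± 0.13 in HT4 and -0.62 ± 0.13 in PB1 (limma, adjusted p = 0.0334, 0.0186 and 0.0146). In DT1 and null the differences were -0.42 and -0.43 (adjusted p = 0.121 and 0.067). Its paralog GCY1 averaged 0.043 ± 0.097 in PB1 and 0.059 ± 0.31 in FHT-WT1 (SD, n = 2 arrays each), a difference of -0.016 ± 0.16. For the mean of the 5 strains the differences were -0.52 ± 0.097 for YPR1 and -0.025 ± 0.12 for GCY1 (adjusted p = 0.00698 and 0.92); the gap between the paralogs was not tested.

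For the mean of the 5 strains, FUR4, PGM2 and UGP1 rose and NRG2 and YPR1 fell, which is 5 of 24, against 12.4% of all genes. Against the homotypic pair, that mean had 6 of the 24 called higher and 3 lower, beside 29.5% of all genes. Between the orientations 3 were called higher on array 1 and 4 lower, beside 35% of all genes. GAL11 was called lower in both. Apart from these comparisons, both added after the values were seen, 18 of the 24 genes were never called. They were MTH1 and PGM1; the kinase, phosphatase and repressor genes SNF1, SNF4, GAL83, SIP1, SIP2, REG1, GLC7, TUP1, CYC8, NRG1, MIG2 and MIG3; HXK2 and LAP3; the Mediator gene GAL11; and KAP104. Of the 11 calls against FHT-WT1, 10 were lost without FHT-WT1 array 1 (adjusted p of 0.0723 to 0.152), all but NRG2 in PB1 (0.0237), and 8 were lost without FHT-WT1 array 2. Over the 14 fits that each leave out 1 array, the call was kept in 14 for NRG2, 13 for PCL10, 12 for YPR1, 10 for FUR4 and 6 for PGM2 in PB1. It was kept in 11 for PGM2 and 9 for UGP1 in null, in 10 for YPR1, 8 for UGP1 and 4 for PGM2 in HT4, and in 8 for YPR1 in TF1. For the mean of the 5 strains all 5 calls were lost whichever FHT-WT1 array was left out (adjusted p of 0.0602 to 0.298). All 11 single-strain calls were lost when the arrays were brought to the same spread (adjusted p of 0.136 to 0.465).

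**Figure D4:**
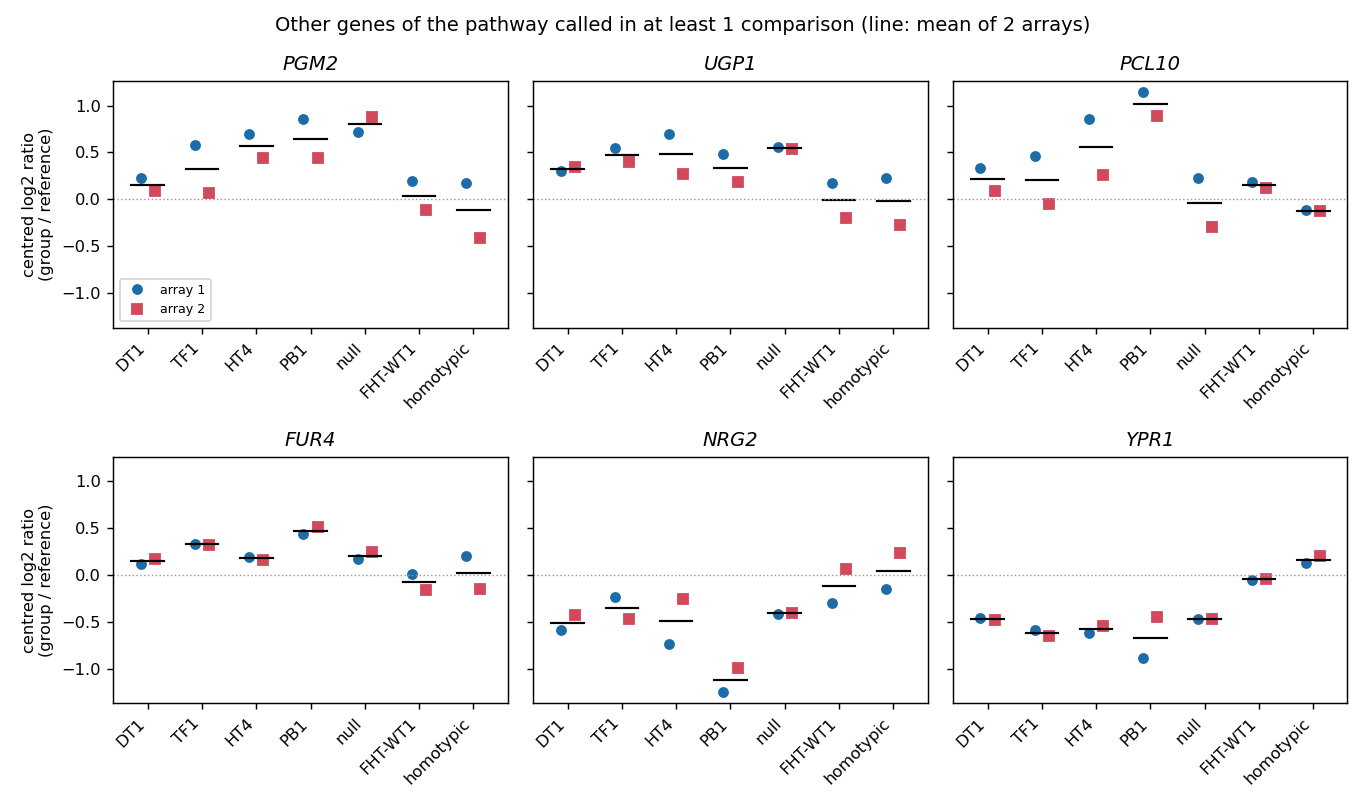
Centred log2 ratio over yjdi363 (vertical axis) of PGM2, UGP1, FUR4, PCL10, NRG2 and YPR1 in the 7 groups (horizontal axis), with 1 point for each array and the marker showing array 1 or array 2. YPR1 lies at or below -0.45 on every array of DT1, TF1, HT4, PB1 and null, and NRG2 reaches -1.25 in PB1.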

How the data were processed

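The study measured polyA RNA of 6 yeast strains and a homotypic pair on 14 arrays of 2 colours. The deposited values are log2 ratios for 7056 features, which the authors, per the series design text, normalised by the mode in R and corrected with B. subtilis spikes; scanner, background correction and the direction of the ratio are not given in the sources used here. Of the features, 5579 paired with 1 gene name, 1477 with none and 0 with several; the 30 genes with several features were averaged, which gave 5548 genes. Each array was centred on its median over named genes. The 5535 genes measured on all 14 arrays (13 were left out) went into 1 linear model (lmFit and eBayes of limma 3.58.1, R 4.3.3) with 7 groups plus the dye orientation, all arrays sharing 1 variance per gene. P-values are two-sided, with Benjamini-Hochberg adjustment over 5535 genes and a threshold of 0.05; ± after a difference is its SE. The fit was tested on simulated data. The 2 arrays of a group limit the precision. Members, lists and named genes (all members, and other listed genes called in a comparison) were chosen with earlier results of these data known. Gene order is from RefSeq's R64 table.

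The alternatives were the arrays as deposited, scaled, quantile normalised or centred on the mode, no dye term, robust or no variance shrinkage, 6 strains only, a value on at least 12 arrays, homotypic array 2 with its sign reversed, and each array left out. The array numbers come from the order of deposition and mark the dye orientation, which is the block of the fit. The comparison with the homotypic pair, the orientation test and the values within 1 orientation were chosen after seeing the data.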

Additional observations from a re-analysis of the deposited data

How the results depend on the processing

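Of 2781 values of single members under alternatives, 33 lost a call, 12 gained one and 210 uncalled ones had the other sign, while 0 called ones reversed. The count of members called for the mean of the 5 strains against FHT-WT1 was 1, and 0 with the arrays as deposited, scaled or quantile normalised, without the replicate block (no dye term), without shrinkage, with 6 strains only, with a value on at least 12 arrays and with homotypic array 2 reversed; without single arrays it was 0 to 1. GAL7 then had adjusted p of 0.505 without the block and 0.0504 with at least 12 arrays (limma). The cause was not tested. Over all genes that comparison called 689, against 166 as deposited, 41 scaled, 24 quantile normalised, 157 without the block, 261 without shrinkage, 456 with homotypic array 2 reversed, 457 without TF1 array 1, and 140 and 199 without FHT-WT1 arrays 1 and 2. Against FHT-WT1 the count over all genes ran over 1 to 80 for DT1 (50), 1 to 287 for TF1 (206), 2 to 800 for HT4 (648), 13 to 595 for PB1 (407) and 1 to 709 for null (332). Against null it ran over 1 to 146 for DT1 (4), 1 to 53 for TF1 (3), 2 to 62 for HT4 (28) and 3 to 81 for PB1 (64). It ran over 366 to 1856 for the mean of the 5 strains against the homotypic pair (1633), 0 to 25 for FHT-WT1 against that pair (0), 931 to 1937 between the orientations (1936), 7 to 612 among 6 strains (222) and 0 to 59 among 4 (21). Against the homotypic pair 2 members were called, and 1 centred on the mode, 1 with homotypic array 2 reversed, 0 without the replicate block and 0 without shrinkage; without single arrays it was 0 to 3. Without single arrays the count of members ran over 0 to 1 for PB1 and null against FHT-WT1, for DT1, TF1, HT4 and PB1 against null, and for any difference among the 6 strains. With the arrays as deposited that count was 1 for DT1 against null and 1 among the 6 strains, GAL2 in both. Between the orientations 4 members were called, 3 without shrinkage (GAL1 was lost, adjusted p = 0.0664, limma) and 4 to 5 without single arrays. The search of promoters for motifs in 2 windows was not run.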
